A study of Homo sapiens with 12 samples.

Results

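The 36 genes described here build the DNA replication fork or supply it with nucleotides, and they were chosen by name from the 9529 genes measured in NOMO-1 cells. They comprise 11 genes grouped as licensing, 4 genes of the CMG helicase beyond the MCM ring and 6 polymerase and primase genes. MCM10 is counted in the licensing group, although it is not itself a licensing factor. There are also 5 clamp and clamp loader genes, 2 genes that join Okazaki fragments and 4 nucleotide supply genes. The remainder are 2 E2F genes and 2 subunits of the histone chaperone CAF-1. All 36 were measured in every library, and all 36 passed the filter on low signal, so none is left out of the counts.

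Before S phase, ORC, CDC6 and CDT1 load the MCM ring onto origins. CDC45 and GINS then turn that ring into the active helicase, the primase and polymerases copy the strands, and PCNA with its loader RFC keeps the polymerases on the template. Deoxynucleotides come from ribonucleotide reductase (RRM1, RRM2), thymidylate synthase (TYMS) and thymidine kinase (TK1), and most of these genes are textbook targets of the E2F transcription factors.

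NOMO-1 is a human acute myeloid leukaemia line, and the study measured its mRNA in 12 libraries, 2 for each of 6 groups. Cells carried the control lentivirus shNS or a lentivirus against ALKBH5, the enzyme that removes N6-methyladenosine from RNA, and were sampled at 0, 8 and 12 h in actinomycin D, which stops transcription, so that the later samples show how much of each mRNA was left. Each shNS group holds replicates 1 and 2, while each knockdown group holds 1 library of each of 2 hairpins, shALKBH5-#1 and shALKBH5-#2, so that neither hairpin is replicated within a time. The columns name the knockdown lines D and E, and the sources used here do not tie either letter to a hairpin. All groups share the host line, and no label says that the shNS replicates were separate cultures. The p-values therefore reflect at most how these libraries scatter, and that scatter may be technical. The treatment text in the labels speaks of lentivirus against FTO and of the drugs CS1 and CS2, whereas titles and group labels name ALKBH5 hairpins and actinomycin D, which were followed here.

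ALKBH5 (chromosome 17, 18183078 to 18209954, GENCODE 29 on GRCh38) checked the labels. Its normalised signal at 0 h was 84.3 and 78.6 in the shNS replicates against 25.4 (line D) and 21.2 (line E). At 8 h it was 35.9 and 32.1 against 1.52 and 4.29, and at 12 h it was 8.22 and 8.30 against 0.636 and 0.973, so both lines lay below both shNS replicates at each time. The total signal per library ranged from 826000 to 953211 at 0 h, from 390103 to 580217 at 8 h and from 143765 to 193639 at 12 h, while the median signal of 46 ERCC spike-in transcripts stayed between 29.9 and 33.1. The unit was not stated and holds no read counts, so depth is unknown and no counting interval is given. Of 12 monocytic leukaemia markers 7 were among the measured genes, including CD33, SPI1 and LYZ, and CD14, MPO, CSF1R, FCGR1A and CD86 were not. Of the 6 erythroid, 5 epithelial and 3 kidney line markers none was measured.

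Left to decay in actinomycin D, the nucleotide supply mRNAs outlasted the rest of the set in shNS cells, and less of them was left at 12 h in both knockdown lines. The percent left, a library's signal divided by the 0 h signal of its own replicate or line, was highest for TK1 (chromosome 17, 78174075 to 78187233), the kinase that salvages thymidine. It was 27.7% and 28.02% at 12 h in the shNS replicates, against 12.2% (line D) and 12.9% (line E). For TYMS (chromosome 18, 657604 to 673578), which makes dTMP from dUMP, it was 23.3% and 21.7% against 10.9% and 11.2%. Both shNS values exceeded both knockdown values for either gene.

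The ribonucleotide reductase subunits did the same. For RRM2 (chromosome 2, 10120698 to 10131419), the small subunit that is made anew in each S phase, 21.4% and 22.4% was left at 12 h in shNS against 7.36% (D) and 10.6% (E). For RRM1 (chromosome 11, 4094707 to 4138876), the large subunit, it was 15.1% and 14.9% against 8.38% and 8.39%. The median over all 9529 genes was 11.9% and 12.9% left in shNS and 10.9% and 10.7% in lines D and E, so the 4 genes kept more than the median gene in shNS, and RRM1 and RRM2 kept less than it in both lines, RRM2 in line E by a narrow margin.

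The signals behind these shares crossed over. RRM2 stood at 203 and 190 in shNS at 0 h, below line D at 346 and line E at 287. At 12 h it stood at 43.4 and 42.5 in shNS and at 25.4 and 30.5 in lines D and E. RRM2 was therefore above both shNS replicates in both lines before the drug and below both after 12 h. TK1 ran from 42.6 and 41.0 in shNS and 68.9 and 51.8 in lines D and E at 0 h, through 36.9 and 29.9 against 29.7 and 30.8 at 8 h, to 11.8 and 11.5 against 8.43 and 6.65 at 12 h. TYMS began at 225 and 218 in shNS against 328 and 259 in the lines, and ended at 52.4 and 47.3 against 35.6 and 28.9. RRM1 began close together, at 112 and 108 in shNS and 127 and 115 in the lines, and ended at 17.0 and 16.1 against 10.6 and 9.68. All 4 had both knockdown libraries above both shNS libraries at 0 h and below both at 12 h. Over all genes 46.4% lay above both at 0 h and 25% lay below both at 12 h. The share of all genes that did both was not counted.

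**Figure D1:**
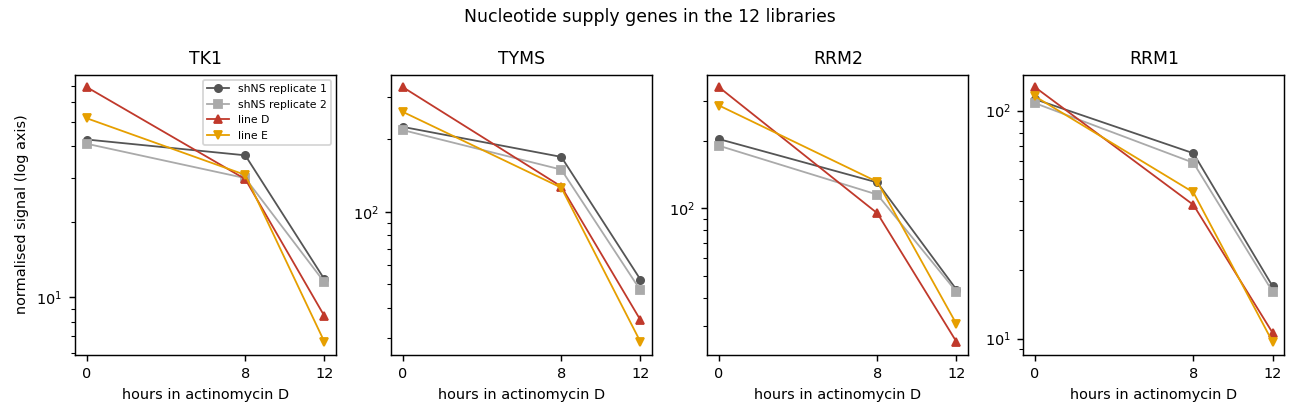
Normalised signal (log axis) of the 4 nucleotide supply genes against hours in actinomycin D, with 1 line of points for each shNS replicate and each knockdown line and no error bars, since each point is 1 library. The knockdown lines start above the shNS replicates and end below them, as for RRM2, which fell to 25.4 and 30.5 in lines D and E against 43.4 and 42.5 in shNS.

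The test of the difference between arms in the change from 0 to 12 h depended on the model. Setting each library against its own line, as a block, was not the only difference between the models. With the block the spread came almost wholly from the mean-variance trend over all genes, so those p-values do not measure a gene's own scatter. In the model of 6 group means, limma on log2(signal + 1) called none of the 9529 genes at a Benjamini-Hochberg adjusted p under 0.05, where percent called was 0. At an unadjusted p under 0.05 it held 337 genes, among which were 4 of the 36 members, the same 4 as above. RRM2 differed by -1.28 (SE 0.30, adjusted p = 0.985). With each line and each shNS replicate as a block, limma called these 4 members lower and no other member, against a background of 2.19% of all genes lower and 0.136% higher. In that fit RRM2 differed by -1.28 (SE 0.23, adjusted p = 2.79e-05), TK1 by -1.08 (SE 0.24, adjusted p = 0.00155), TYMS by -1.01 (SE 0.23, adjusted p = 0.00259) and RRM1 by -0.79 (SE 0.24, adjusted p = 0.0423). The libraries of 1 knockdown line shared their deviations from the group means across times, whereas those of 1 shNS replicate did so weakly, with a correlation of 0.065 between 0 and 12 h.

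With the block, RRM2 passed in 13 of 15 alternatives, TYMS in 10, TK1 in 9 and RRM1 in 6. None of the 4 passed when shNS replicate 2 or line E was left out at 12 h, with RRM2 at an adjusted p of 0.0527 and 0.1, while the values kept their direction in all 15 alternatives. When libraries were scaled to each other by the median ratio over genes, all 4 passed, and when they were scaled to the mean of the spike-ins, RRM1 did not (-0.77, adjusted p = 0.0594). The difference of changes holds both the higher 0 h signal and the lower 12 h signal of the lines, and neither was called alone: RRM2 had an adjusted p of 0.111 at 0 h and 0.166 at 12 h.

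At 8 h the same direction was seen beside a wide loss over all genes. TK1 kept 86.5% and 73.0% in shNS against 43.0% and 59.5% in lines D and E, and RRM2 kept 64.1% and 60.6% against 27.5% and 45.7%. The median gene kept 42.2% and 41.1% in shNS against 23.9% (D) and 33.6% (E), so the 4 nucleotide supply genes stayed above the median gene in all 4 replicates or lines, as did MCM2, GINS4 and LIG1, where 39.5% of all genes did. Below it in all 4 were 21 members, against 40% of all genes. Without the block limma called 0 members and 0 genes for the difference in the 8 h change, with 9 members and 1560 genes at an unadjusted p under 0.05. With the block it called 16 members lower and 0 higher, against 26.1% and 0.105% of all genes. None of the 16 was called once libraries were scaled by the median ratio, or to the mean of the spike-ins.

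Among the replication genes themselves CDT1 kept least at 8 h and FEN1 at 12 h in shNS, while in the knockdown ORC1 had the lowest mean at both times (6.30% ± 0.103 at 8 h and 2.87% ± 0.0149 at 12 h, SD, n = 2). In shNS, 35 of 36 members fell from 0 to 8 h, where 82.2% of all genes fell and 0.0315% rose, and 36 fell by 12 h, where 99.5% fell and 0.0105% rose. In the knockdown 36 fell by 8 h, against 96% of all genes (0.0315% rose), and 36 by 12 h, against 99.6% (0.021% rose). TK1 was the member not called at 8 h in shNS (log2 change -0.32, SE 0.21, adjusted p = 0.163). The members' median log2 change from 0 to 12 h was -3.21 in shNS and -3.49 in the knockdown, against -2.56 and -2.80 over all genes. Relative to the median gene, by the median ratio scaling, 3 members rose in shNS by 12 h (TK1, RRM2, TYMS), where 24.6% of all genes did, and 17 fell, where 27% did. In the knockdown 0 rose on that scale, where 22.1% did, and 20 fell, where 24.2% did. At 12 h 26 of 36 members kept less than the median gene in all 4 replicates or lines, against 37.8% of all genes, and TK1 alone kept more in all 4, against 37.7%.

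CDT1 (chromosome 16, 88803213 to 88809258), the licensing factor that helps load MCM rings, was nearly gone by 8 h. Its signal in the shNS replicates went from 70.1 and 65.3 at 0 h to 5.39 and 3.58 at 8 h and 1.68 and 1.75 at 12 h. In lines D and E it went from 57.2 and 54.8 to 3.53 and 3.95 and then to 1.76 and 1.64. Lines and replicates overlapped at 8 and 12 h. Most of its loss came early: from 8 to 12 h it kept 31.2% and 48.8% of its 8 h signal in shNS, the highest mean of the 36 members over that interval (40.0% ± 12.4, SD, n = 2).

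FEN1 (chromosome 11, 61792637 to 61797244), the flap nuclease that trims Okazaki fragments, kept the least of all members by 12 h in shNS, 2.04% and 2.30%, against 2.15% (D) and 3.87% (E). RFC4, a clamp loader subunit, came next after CDT1 with 2.58% and 2.82% in shNS and 2.60% and 3.93% in the lines. The shNS values of CDT1 and RFC4 overlapped, and those of FEN1 lay below both. PCNA (chromosome 20, 5114953 to 5126626), the sliding clamp, showed a different course: it kept 33.9% and 30.9% at 8 h in shNS but 12.7% and 15.2% of that by 12 h, the lowest mean over the later interval (13.9% ± 1.74, SD, n = 2).

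Genes of 1 complex did not share 1 rate. Within the MCM ring MCM2 kept 14.0% and 14.1% at 12 h in shNS while MCM3 kept 4.04% and 3.77% and MCM4 4.20% and 4.65%, and MCM5, MCM6 and MCM7 lay between, at 5.76% to 11.4%. In the clamp loader RFC5 kept 9.71% and 12.2% while RFC4 kept 2.58% and 2.82%. In the replicative polymerases POLE kept 11.5% and 12.4% and POLD1 11.4% and 11.7%, whereas the primase subunits PRIM1 and PRIM2 kept 2.51% to 4.41%. The joining genes stood far apart, with LIG1, the ligase, at 14.8% and 13.7% and FEN1 at 2.04% and 2.30%. E2F1 and E2F2 lay a little under the median gene, at 10.3% to 11.1%.

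**Figure D2:**
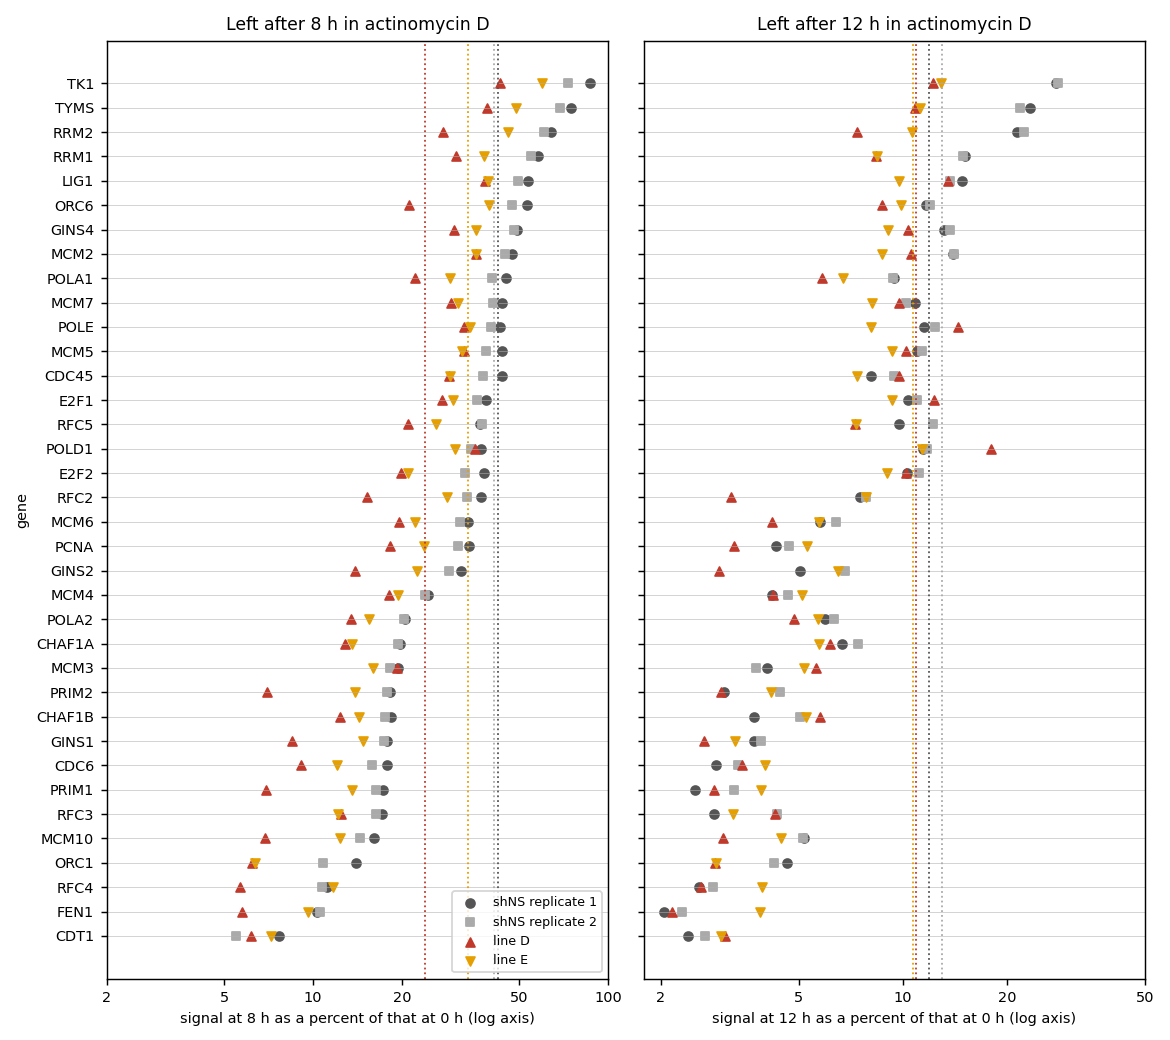
Percent of the 0 h signal left at 8 h and at 12 h (log axes) for the 36 members, ordered by their shNS mean at 8 h, with 1 point for each shNS replicate and each knockdown line and dotted lines at the median gene of that replicate or line. TK1, TYMS, RRM2 and RRM1 lead at 8 h in shNS, and at 12 h their points in lines D and E lie between 7.36% and 12.9% while those in shNS lie between 14.9% and 28.02%.

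Before actinomycin D no member was called between the knockdown and shNS. The background was 1.33% of all genes higher and 0.136% lower, and 8 members and 2115 genes stood at an unadjusted p under 0.05. The members' median log2 difference was 0.41, with a range from -0.33 to 1.01 and 31 of 36 above 0, against a median of 0.23 over all genes. Both knockdown libraries lay above both shNS libraries for 24 of 36 members, where 46.4% of all genes did, and below both for 3 members, CDT1, ORC1 and PRIM1, where 6.88% did. In bulk RNA, a different share of cells in S phase and a different amount of these mRNAs per cell cannot be told apart. Scaled by the median ratio, the median difference over all genes was -0.01 and that of the members 0.15.

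The 2 lines differed at 0 h. Against the shNS mean, the median member of line D was at 1.56 times and that of line E at 1.11 times, while the median gene was at 1.24 and 1.14 times. With line D alone set against shNS, limma called 23 members higher and 0 lower, where 43.4% of all genes were higher and 9.17% lower. With line E alone it called FEN1 and RRM2 higher and 0 lower, where 18.6% were higher and 3.19% lower. In these fits the knockdown arm is 1 library at each time, so its spread is borrowed from the remaining groups. E2F2 was at 3.35 times the shNS mean in line D against 1.32 times in E, CDC6 at 2.90 and 1.32 times, and FEN1 at 2.55 and 1.41 times. Line E lay between the shNS replicates for MCM2 and MCM4 and below both for MCM10.

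**Figure D3:**
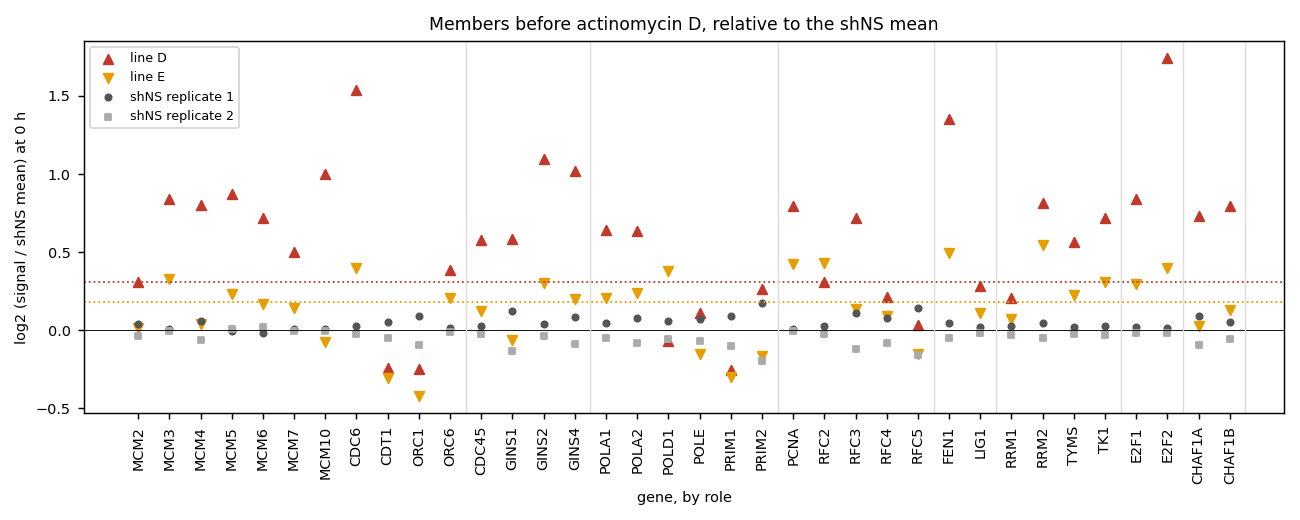
Log2 ratio of the 0 h signal to the mean of the shNS replicates for the 36 members, grouped by role, with 1 point for each library and dotted lines at the median gene of line D (upper) and line E (lower). Line D lies above line E for most members, with E2F2 highest at 3.35 times the shNS mean, and CDT1, ORC1 and PRIM1 lie below 0 in both lines.

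Over the 3 times together, line D exceeded line E in 12 of 36 members and fell below it in 1, where 14.2% of all genes were called higher and 14.9% lower. The median difference over the members was 0.27, with 28 of 36 above 0, against 0.02 over all genes. The 12 included 5 genes of the licensing group (MCM3, MCM4, MCM5, MCM10, CDC6) and the helicase genes CDC45 and GINS4. The rest were the clamp loader gene RFC3 and both E2F and both CAF-1 genes. No polymerase, primase or nucleotide supply gene was called. Each side is 1 line at 3 times with no replicate of either hairpin, so the test compares these lines and not the hairpins' target. Its SEs came almost wholly from the mean-variance trend over all genes, so its p-values do not measure a gene's own scatter.

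E2F2 (chromosome 1, 23506430 to 23531220), an activating E2F, differed most, by 1.10 (SE 0.17, adjusted p = 1.27e-08). Its signal in line D was 32.3, 6.41 and 3.29 at 0, 8 and 12 h, in line E 12.7, 2.66 and 1.14, and in the shNS replicates 9.75 and 9.54, then 3.69 and 3.13, then 1.00 and 1.06. Line D was highest at each time, and line E was below both shNS replicates at 8 h. CDC6 (chromosome 17, 40287633 to 40304657), the ATPase that helps load MCM rings, differed by 0.72 (SE 0.17, adjusted p = 0.000371). GINS4, a helicase subunit, differed by 0.69 (SE 0.18, adjusted p = 0.0015), with 42.1, 12.6 and 4.35 in D against 23.8, 8.51 and 2.16 in E. In shNS GINS4 was 22.1 and 19.6, then 10.8 and 9.38, then 2.89 and 2.66.

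RFC2 (chromosome 7, 74231499 to 74254458), a clamp loader subunit, was the member lower in line D, by -0.71 (SE 0.18, adjusted p = 0.00101). The 2 lines were close at 0 h, at 59.8 (D) and 64.8 (E), and parted to 9.08 against 18.5 at 8 h and 1.91 against 5.07 at 12 h. In shNS RFC2 was 49.0 and 47.4, then 18.2 and 15.8, then 3.68 and 3.71, so line E stayed above both shNS replicates while line D was below both at 8 and 12 h. The call was lost without line D at 12 h. The number of members called higher was 4 in place of 12 without line E at 8 h.

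The promoters of the set were searched for E2F words. These are the 8 letter sequences TTTGGCGC, TTTCCCGC, TTTGCCGC and TTTCGCGC on either strand. The windows were the 300 bases of RefSeq promoters on GRCh38.p14, from 250 before to 50 after the gene start, and 33 of 36 members had 1. MCM4, MCM5 and GINS4 had none in that table. A word was present in any promoter for 17 of 33 members (51.5%), against 523 of 7277 tested genes with a promoter (7.19%). Counted per promoter, it was present in 17 of 42 promoters of members (40.5%). Of all promoters of the same length 1164 of 35116 held one (3.31%). The word CCAAT, searched on both strands, was present for 60.6% of these members and 43.3% of the tested genes.

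The words did not follow the split between lines. Of the 12 members higher in line D, 9 had a promoter in the table and 5 of these held a word (MCM3, CDC6, RFC3, E2F1, E2F2). Of the other 24, all had a promoter and 12 held a word. The stretches printed here run from 180 bases before to 30 bases from the start on, 5′ to 3′ along the gene's strand, with the E2F words in capitals. E2F2, E2F1 and CDC6 are shown as members that were high in line D, MCM3 because it was called, like CDC6, both between lines and across times, MCM6 because it holds 2 places where words on opposite strands overlap, counted as separate words, and ORC1 because it was lower in both lines and its window holds none of these words.
E2F2, chr1:23531204-23531413, minus strand: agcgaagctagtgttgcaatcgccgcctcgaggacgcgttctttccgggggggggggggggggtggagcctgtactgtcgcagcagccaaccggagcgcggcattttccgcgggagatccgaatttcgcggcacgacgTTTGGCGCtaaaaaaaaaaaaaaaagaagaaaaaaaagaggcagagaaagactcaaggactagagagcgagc
E2F1, chr20:33686356-33686565, minus strand: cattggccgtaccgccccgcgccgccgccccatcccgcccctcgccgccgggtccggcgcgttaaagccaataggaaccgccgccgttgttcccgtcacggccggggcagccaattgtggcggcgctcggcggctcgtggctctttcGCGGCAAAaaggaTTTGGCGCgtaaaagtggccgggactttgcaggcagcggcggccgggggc
CDC6, chr17:40287699-40287908, plus strand: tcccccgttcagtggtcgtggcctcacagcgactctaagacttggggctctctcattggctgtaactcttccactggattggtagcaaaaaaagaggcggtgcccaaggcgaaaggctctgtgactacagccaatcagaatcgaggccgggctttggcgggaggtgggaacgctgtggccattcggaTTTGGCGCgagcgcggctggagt
MCM3, chr6:52284713-52284922, minus strand: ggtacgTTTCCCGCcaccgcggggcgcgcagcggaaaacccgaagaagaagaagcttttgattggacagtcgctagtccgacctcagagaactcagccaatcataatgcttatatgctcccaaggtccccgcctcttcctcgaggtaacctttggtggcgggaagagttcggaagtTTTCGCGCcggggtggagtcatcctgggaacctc
MCM6, chr2:135876414-135876623, minus strand: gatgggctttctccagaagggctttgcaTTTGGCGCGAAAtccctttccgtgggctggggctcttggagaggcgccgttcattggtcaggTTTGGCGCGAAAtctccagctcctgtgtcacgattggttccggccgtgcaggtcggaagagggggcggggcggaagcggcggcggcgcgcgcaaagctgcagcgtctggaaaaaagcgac
ORC1, chr1:52404394-52404603, minus strand: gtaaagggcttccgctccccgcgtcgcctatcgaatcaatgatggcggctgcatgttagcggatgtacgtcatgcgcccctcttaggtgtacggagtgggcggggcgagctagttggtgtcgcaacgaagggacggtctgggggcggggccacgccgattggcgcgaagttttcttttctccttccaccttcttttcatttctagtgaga

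In E2F1, E2F2 and CDC6 a word lies close to the gene start, and in MCM3 1 lies across it. A match describes the letters in this window and is not a measured binding site, and its absence in ORC1 says only that these letters are not there. FEN1, above shNS in both lines, held no word either, while CDT1, below shNS in both lines at 0 h, held 1. CDC45, CHAF1A, CHAF1B and MCM10, which were higher in line D, also held no word.

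Across all 3 times, 3 members were higher and 2 lower in the knockdown, where 11.9% of all genes were higher and 9.14% lower. FEN1 was higher by 0.70 (SE 0.15, adjusted p = 0.00372). Its signal was 47.7 and 44.5 in shNS against 118 and 64.9 in lines D and E at 0 h, 4.90 and 4.69 against 6.74 and 6.25 at 8 h, and 0.970 and 1.02 against 2.53 and 2.51 at 12 h. Both lines were above both shNS replicates at every time. MCM3 (chromosome 6, 52264009 to 52284881), a subunit of the MCM ring, was higher by 0.67 (SE 0.16, adjusted p = 0.00848). It stood at 191 and 189 against 341 and 239, then 37.2 and 34.5 against 65.6 and 38.1, then 7.73 and 7.13 against 19.2 and 12.3, again with no overlap.

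CDC6 was higher by 0.57 (SE 0.18, adjusted p = 0.0297). It measured 16.9 and 16.3 in shNS against 48.1 and 21.9 at 0 h, 3.003 and 2.59 against 4.37 and 2.65 at 8 h, and 0.487 and 0.545 against 1.66 and 0.871 at 12 h, so line E fell between the shNS replicates at 8 h. With line E alone the difference was 0.21 and was not called, and with a replicate block as a random effect the CDC6 call was lost (adjusted p = 0.07). E2F2 had a difference of 0.61 (SE 0.22, adjusted p = 0.0577).

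ORC1 (chromosome 1, 52372829 to 52404459), the ATPase subunit of the origin recognition complex, went the other way, by -0.68 (SE 0.14, adjusted p = 0.00376). It measured 62.9 and 55.2 in shNS against 49.6 and 44.0 at 0 h, 8.81 and 5.99 against 3.09 and 2.81 at 8 h, and 2.92 and 2.34 against 1.42 and 1.27 at 12 h. Both lines were below both shNS replicates at every time. At 8 h alone ORC1 differed by -1.07 (SE 0.21, adjusted p = 0.0233) and PRIM1, the catalytic primase subunit, by -0.94 (SE 0.25, adjusted p = 0.0498). They were the members called at 8 h, where 4.51% of all genes were lower and 0.42% higher. The PRIM1 call was lost when libraries were scaled by the median ratio or to the mean of the spike-ins.

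RFC5 (chromosome 12, 118013588 to 118033130), a clamp loader subunit, was lower by -0.39 (SE 0.13, adjusted p = 0.0476). It measured 36.2 and 29.3 in shNS against 33.5 and 29.5 at 0 h, 13.3 and 10.96 against 7.01 and 7.67 at 8 h, and 3.52 and 3.56 against 2.44 and 2.16 at 12 h. The groups overlapped at 0 h and not later. The call held in 9 of 24 alternatives, against 22 of 24 for FEN1, MCM3 and ORC1 and 14 of 24 for CDC6. This model treats the 3 libraries of a line as separate, and with 1 mean per line none of the 36 was called, where 2.72% of all genes were higher and 2.42% lower (FEN1 at an adjusted p of 0.0502).

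**Figure D4:**
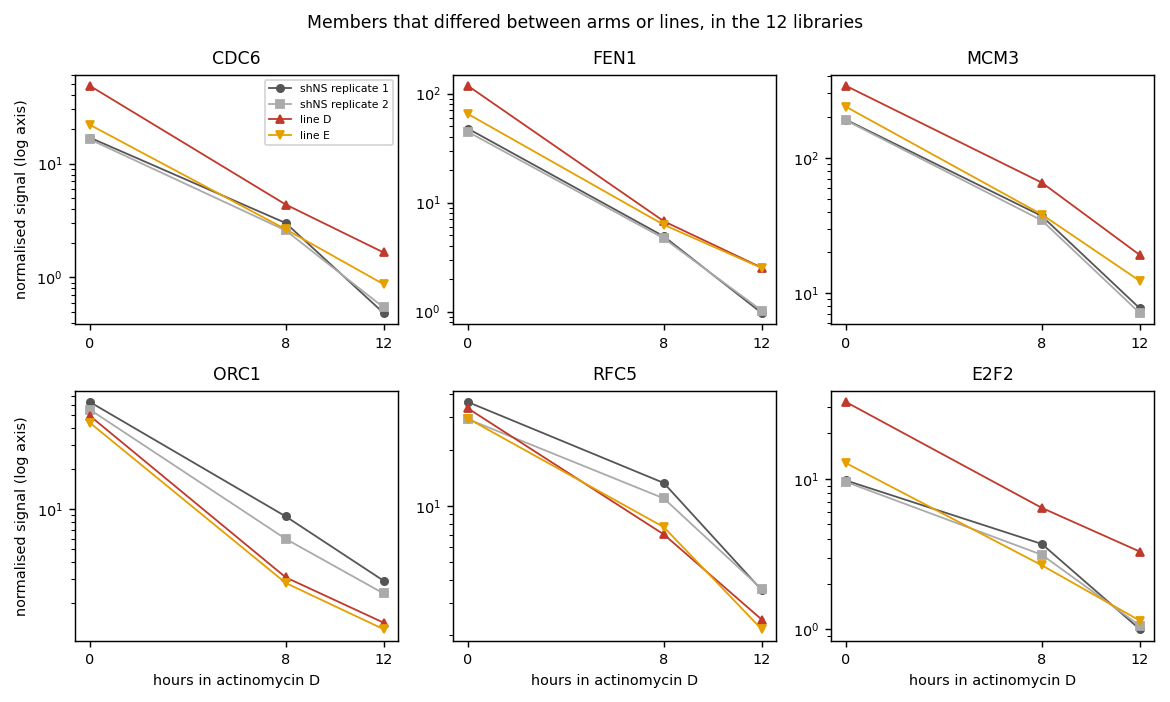
Normalised signal (log axes) of the 5 members called across times and of E2F2 against hours in actinomycin D, with 1 line of points for each shNS replicate and each knockdown line and no error bars. FEN1 and MCM3 lie above shNS and ORC1 below it in both lines at every time, while E2F2 is high in line D.

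By role, the licensing genes held 2 of the calls up and 1 down across times, the joining genes 1 up, the clamp loader 1 down, and the helicase, polymerase, nucleotide supply, E2F and CAF-1 genes none. At 12 h alone no member was called in either direction, where 0.525% of all genes were higher and 0.493% lower, with 9 members and 1675 genes at an unadjusted p under 0.05. Both knockdown libraries lay above both shNS libraries for 2 members at 8 h (MCM3, FEN1), against 10.4% of all genes, and below both for 12, against 42.8%. At 12 h they lay above for 11 members, against 33% of all genes, and below for 8 (MCM2, ORC1, ORC6, RFC5 and the 4 nucleotide supply genes), against 25%. Scaled by the median ratio, FEN1 was higher at 12 h and 6 members were lower, the 4 nucleotide supply genes, ORC1 and RFC5, against 8.47% and 8.14% of all genes.

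**Figure D5:**
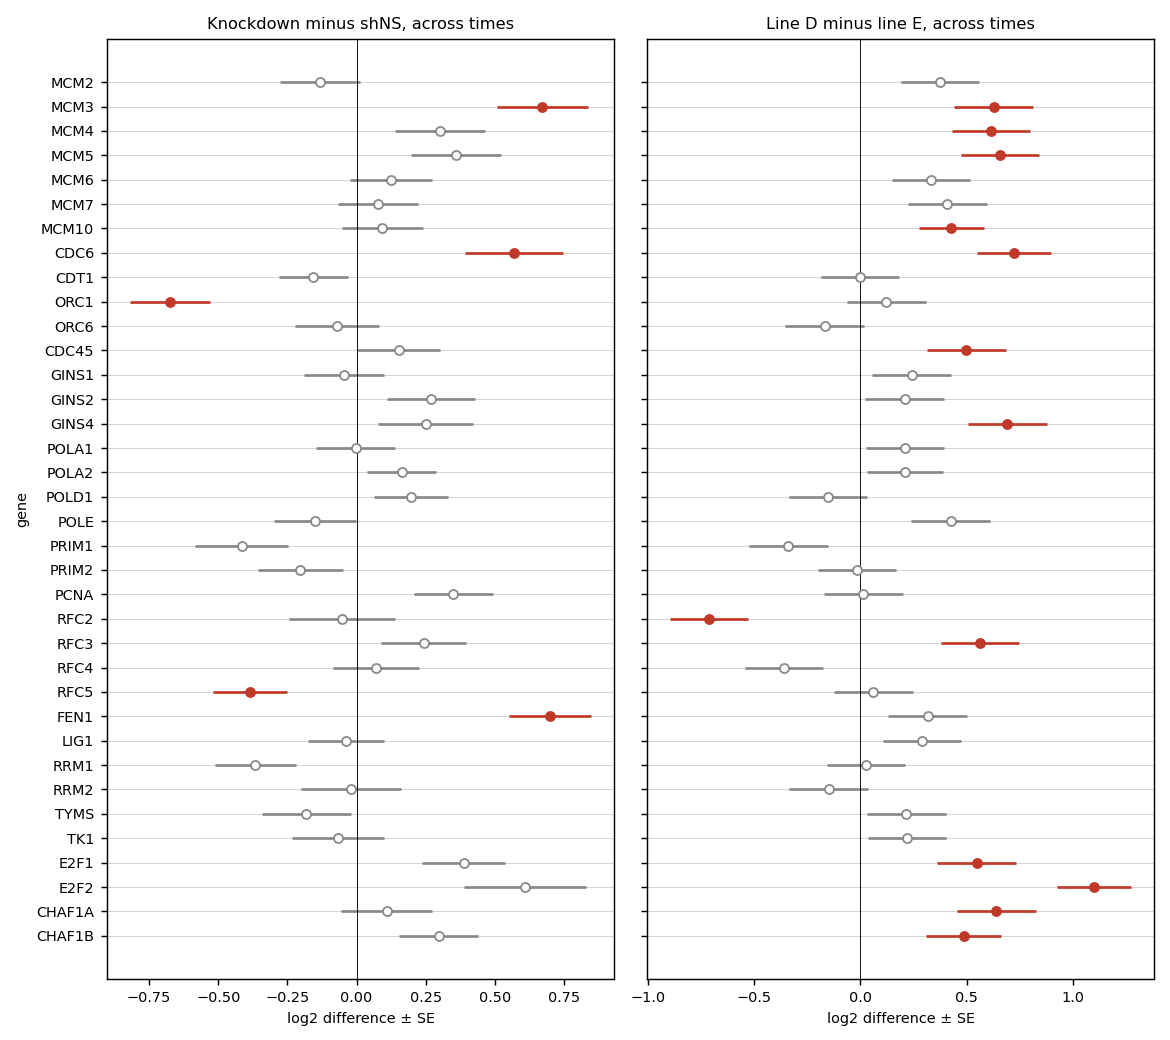
Log2 differences with their standard errors from limma for the 36 members, at left the knockdown minus shNS across times and at right line D minus line E, with filled points for an adjusted p under 0.05. FEN1, MCM3 and CDC6 are filled on the right of 0 and ORC1 and RFC5 on the left of it in the first panel, and E2F2 is farthest to the right, at 1.10, in the second.

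Genes of the same pathway outside the 36 were called in both directions across times, against the same 11.9% of all genes higher and 9.14% lower. Of 35 other DNA replication genes measured, POLE4 (0.67) and RECQL4 (0.58) were higher across times and RNASEH2B (-0.998), ATAD5 (-0.86) and CDC7 (-0.45) lower, with a median of -0.05. Of 29 other genes of nucleotide metabolism 5 were higher and 0 lower, led by DCTPP1 (0.65), CTPS1 (0.51), RRM2B (0.50) and IMPDH1 (0.46). The last was SAMHD1 (0.32), which like DCTPP1 breaks deoxynucleotides down and does not make them. Of 14 genes of E2F, RB and other G1/S regulators E2F3 was higher (0.37) and RB1 (-0.73) and TFDP2 (-0.50) were lower. Of 10 chromatin assembly genes UHRF1 was higher (0.89) and NASP lower (-0.49). Mitosis genes, which mark later cycle stages, had 11 of 38 lower and 0 higher across times, with a median of -0.32, against 9.14% of all genes lower. At 0 h 0 of the 38 were called, at 8 h 7 were lower, against 4.51%, and at 12 h 5 were lower, against 0.493%. The part that cell cycle stage has in the members' values was not tested.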

How the data were processed

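mRNA of 12 NOMO-1 libraries was analysed in 6 groups of 2. STAR, RSEM and GRCh38 are named in the submitters' processing notes, with version numbers not given in the sources used here. Deposited values are a signal per gene symbol on a linear scale. Since the ERCC medians are level while totals drop, the authors' signal appears to have been scaled to spike-ins, although no label says so, and every change over time rests on it. The 46 ERCC transcripts were left out of the tests. All 9529 genes had a mean of at least 1 (lowest 1.30) and no value of 0. Values were tested as log2(signal + 1), which understates the change of low genes, in R 4.3.3 with limma 3.58.1 (empirical Bayes, mean-variance trend), and a Benjamini-Hochberg adjusted p under 0.05 over all genes was called. Models were 6 group means, time plus knockdown (across times) and time plus line (line D minus line E). In the line model, and in the fit with a block, the SE of a gene came almost wholly from the trend over all genes.

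The pairing of libraries across times comes from the line letters and the shNS replicate numbers in the labels. Deviations from the group means of line D correlated between times at 0.777, 0.657 and 0.90, and those of shNS replicate 1 at 0.271, 0.065 and 0.138. Alternatives were other scalings, a pseudocount of 0.1, a mean of at least 5, no trend, 1 line alone, 1 time left out, line means, a block and each library left out. The block with another scaling, with a pseudocount of 0.1 and with each library left out was chosen after seeing the data.

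The members, lists and search words were chosen with earlier results of these data known. Named in full were members called at 0 h, across times or, with the block, in the difference of the 12 h change. So were the 2 highest and 2 lowest percents left at 12 h in shNS, and up to 3 called each way between lines. Members called with the block in the difference of the 8 h change are given as a count. Other members named with their percents left or their line ratios, and the pair called at 8 h, were chosen after their values were seen. Gene positions are from GENCODE 29 and promoters from RefSeq on GRCh38.p14. Comparisons of the arms at each time and the differences of changes were run on simulated data, with noise drawn separately for each library. Such data carry no correlation within lines, unlike the libraries here. The tests across times and between lines were not checked in this way.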

Additional observations from a re-analysis of the deposited data

Results flagged for a closer look

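Members that differed between the knockdown lines were singled out because their signal differed between lines D and E, by limma's test of line D minus line E across the 3 times. On the log2 scale the difference was 1.099 for E2F2, 0.721 for CDC6, 0.69 for GINS4, 0.658 for MCM5, 0.638 for CHAF1A, 0.626 for MCM3 and 0.614 for MCM4. It was 0.564 for RFC3, 0.547 for E2F1, 0.499 for CDC45, 0.486 for CHAF1B and 0.428 for MCM10, and it was -0.711 for RFC2. These are 13 of 36 members, where 14.2% of all genes were called higher and 14.9% lower. MCM3 and CDC6 are also among the members called in the knockdown across times. Each line is 1 hairpin with 1 library per time, so a difference between hairpins and one between cultures cannot be told apart.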

How the results depend on the processing

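Counts of members called at an adjusted p under 0.05 are given here for the alternatives that moved them by over 1.5 times. No member called in a comparison of the arms or of the lines changed direction under any alternative. The fits with 1 line alone set 1 library per time against 2, so the spread of the lone library is borrowed from the remaining groups. With line D alone, 23 members were higher at 0 h, 5 higher and 9 lower at 8 h, 13 higher and 6 lower at 12 h, and 11 higher across times. With line E alone, 2 were higher at 0 h, 6 lower at 8 h, 4 higher and 8 lower at 12 h, and 5 higher and 5 lower across times. Scaled by the median ratio, 1 was lower at 8 h, 1 higher and 6 lower at 12 h, and 5 higher and 4 lower across times, and line D had 3 members below line E. Under that scaling, which sets the median gene near 0, these changes turned from below to above 0 and were called: in shNS by 8 h RRM1 (0.47), RRM2 (0.62), TK1 (0.93) and TYMS (0.82), by 12 h RRM2 (0.82), TK1 (1.125) and TYMS (0.86), and in the knockdown by 8 h TK1 (0.84) and TYMS (0.65). In counts, shNS had 4 members higher and 14 lower by 8 h and 3 higher and 17 lower by 12 h, and the knockdown had 2 higher and 13 lower by 8 h and 20 lower by 12 h. Scaled to the mean of the spike-ins, 1 was lower at 8 h and 6 higher across times. With a pseudocount of 0.1, 1 was lower at 8 h, and 1 was higher and 2 lower at 12 h. Without the 12 h libraries 0 were higher and 0 lower across times, without the 8 h libraries 1 was lower, and with line means 0 were higher and 0 lower.

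With a replicate block, the difference in change held 16 members lower at 8 h and 4 at 12 h in place of 0, and as a random effect, with a correlation of 0.251 within lines, the block left 1 member lower across times, where the calls of CDC6 (adjusted p = 0.07) and RFC5 (adjusted p = 0.175) were lost. The block moved no other count of members by over 1.5 times. With the block and the median ratio, or the block and the spike-in mean, 0 were lower at 8 h. With 1 library left out, counts ran from 0 to 5 higher at 0 h (5 without line E at 0 h), 0 to 1 higher and 0 to 7 lower at 8 h, 0 to 1 either way at 12 h, 2 to 6 higher and 1 to 3 lower across times, and 4 to 18 higher and 0 to 4 lower between lines. With the block they ran from 0 to 29 at 8 h and 0 to 7 at 12 h. The cause was not tested. The filter removed no gene, so testing without it is void.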

Other observations

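Line D also differed from line E in genes that sit near the replication set. UHRF1, which recruits the maintenance methyltransferase to newly copied DNA, was higher in line D by 1.23 on the log2 scale (adjusted p = 1.11e-09, limma), and CLSPN, the replication checkpoint adaptor, by 0.96. Of 14 genes of E2F, RB and other G1/S regulators 3 were higher in line D (LIN9, LIN52, RBL1) and 3 lower (CDK2, E2F4, RB1). RB1, the repressor of E2F, differed by -0.86 and its relative RBL1 by 0.45. Of 10 chromatin assembly genes 5 were higher in line D and 0 lower, of 38 mitosis genes 10 were higher and 2 lower, and of 35 other replication genes 8 were higher and 2 lower, where 14.2% of all genes were higher and 14.9% lower. Of 7 monocytic markers measured 2 were higher in line D (ITGAM by 1.82, LYZ by 0.57) and 1 lower (PTPRC by -0.56), with a median of 0.08.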
